A study of Mus musculus with 4 samples.

Results

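The mRNAs described are the translation elongation mRNAs and a few companions that, like the ribosomal protein mRNAs, belong to the 5′ TOP class but do not encode ribosomal proteins. They were chosen by name as *Eef1a1*, *Eef1b2*, *Eef1d*, *Eef1g*, *Eef2*, *Tpt1*, *Pabpc1*, *Gnb2l1*, *Naca* and *Btf3*, and all 10 were found among the 16537 genes measured. RNA was sequenced from YUMM1.7 cells, a mouse melanoma line with no further change of genotype (labelled wildtype), grown overnight on porous membranes coated underneath with fibronectin. Protrusions passed through the pores and cell bodies stayed on top, and each fraction gave 2 libraries, labelled biological replicates and each made from 6 membranes. No other treatment distinguished the groups, so the comparison asked only where in the cell an mRNA was more abundant relative to the other RNAs of its fraction.

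A 5′ TOP (terminal oligopyrimidine) mRNA starts, at its cap, with a C followed by an unbroken run of pyrimidines. Through this run the mTORC1 pathway switches translation of the whole class on with growth signals and off under starvation, with the RNA-binding protein LARP1 holding the mRNAs in the repressed state. The class supplies the translation machinery: ribosomal proteins, the factors that bring aminoacyl-tRNA and move the ribosome along, and proteins that meet the poly(A) tail or the nascent chain.

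The class is defined by how an mRNA starts, so the annotated starts are shown. They did not decide which mRNAs were included. The first 30 bases came from the GENCODE transcripts of GRCm38, and capitals mark a run of C and T that begins with C. For 4 of the 10 mRNAs an annotated coding transcript opened with such a run of at least 5 bases, and 3 of these are shown.
Pabpc1: CCCCTTCTCCCCggcggttagtgctgagag
Gnb2l1: CTTTTTCTCCacagggtcgtggtggcagcc
Eef1d: CTCTCCTTTgcagtcctgagctcgcagttc

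In a further 3 a run of 7 or 8 bases lay further in, inside the window and not at its start. How often other genes have such an inner run was not counted.
Eef2: gttgacgtcagcggtCTCTTCCgccgcagc
Naca: ctcgctcgttCTCTTTCTgccgccatcttg
Btf3: cttgcgtccccgcgtgtgtgcgCCTTCTCT

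In *Eef1a1*, *Eef1g* and *Tpt1* the longest such run in the window was 3, 3 and 4 bases. An opening run was annotated for 4 of 10 of these genes (40%), for 23 of 79 ribosomal protein genes (29.1%), for 630 of 10550 matched protein-coding genes at a mean of at least 1 TPM (5.97%) and for 1121 of all 21877 protein-coding genes (5.12%). For *Eef1d* only 1 of 15 coding transcripts had it. Annotated ends need not be the starts used in these cells, and the read data do not show which start was used.

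Levels are in TPM, the length-scaled share of a library that a gene's transcripts took up. The ratios of TPM values gave the smallest whole numbers of reads, at least 24717229 to 29650618 reads assigned to genes per library and at least 4313 for each of the 10 mRNAs in each library. The melanocyte factor *Mitf* was at 5.12 to 6.17 TPM, while the pigment cell markers *Pmel* and *Tyr* did not exceed 0.07 and 0.76 TPM. Protrusion replicate 1 stood apart in 16 liver marker genes, which summed to 87.2 TPM there and to 1.87, 3.76 and 4.23 TPM in cell body replicates 1 and 2 and protrusion replicate 2. Folds without that library are given below, and the part of the liver RNAs in any result was not tested. The control mRNAs *Ppia*, *Ywhaz*, *Rhoa* and *Arpc3* did not pass the test, with log2 fold changes from -0.08 to 0.27.

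Most of the elongation and companion mRNAs had higher levels in protrusions, by modest amounts. In 8 of the 10 both protrusion libraries lay above both cell body libraries, against 26.4% of all 11400 tested genes, and the exceptions were *Eef1d* and *Naca*. The reverse order was seen in 0 of the 10, against 37% of all genes. The median log2 ratio of protrusion to cell body level was 0.30, a fold of 1.23, beside -0.07 for all tested genes and -0.01 for 1438 other genes at a mean of at least 100 TPM. Both protrusion libraries were above both cell body libraries in 450 of these 1438 genes and below in 488. They were also above in 2 of the 4 control mRNAs, *Ppia* and *Rhoa*, and below in 0. *Rhoa*, at a log2 fold change of 0.27, lay above *Eef1a1*, *Gnb2l1*, *Btf3*, *Eef1d* and *Naca*. None of the 10 passed the test in either direction (limma, adjusted p under 0.05 over all tested genes), where 2.99% of all genes were called higher and 4.25% lower. At an unadjusted p under 0.05, 5 of the 10 were higher and 0 lower, against 12.6% and 18.7% of all genes. The replicate number was also taken as a block, which pairs the fractions taken from the same membranes. *Eef1b2*, *Eef1g* and *Pabpc1* then passed as higher and none as lower, where 8.08% of all genes were called higher and 13.3% lower. The SE was larger with the block for *Eef1b2* (0.120 against 0.104) and *Eef1g* (0.125 against 0.117) and smaller for *Pabpc1* (0.159 against 0.207). The block left 1 residual degree of freedom in place of 2. The prior degrees of freedom, which limma estimates over all genes, rose from 3.81 to 10.2. In bulk fractions, fewer contributing cells and less RNA per cell cannot be told apart, and the levels are relative to the other RNAs of a library.

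**Figure D1:**
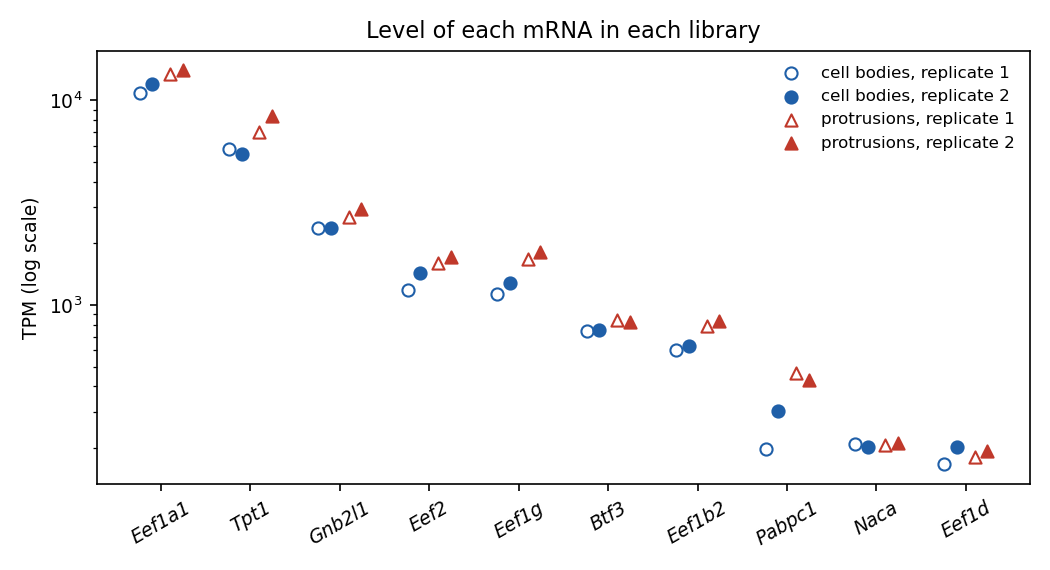
TPM on a log axis of each of the 10 mRNAs, ordered by mean level, in the 2 cell body libraries (circles) and the 2 protrusion libraries (triangles), with replicate 1 open and replicate 2 filled. The levels run from 167 TPM for *Eef1d* to 13966 TPM for *Eef1a1*, and only *Eef1d* and *Naca* have overlapping groups.

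*Eef1a1*, on chromosome 9 from 78478449 to 78489151 (GRCm38), encodes eEF1A, the GTPase that delivers aminoacyl-tRNA to the ribosome. Its mRNA was at 10887 and 12051 TPM in cell bodies and at 13483 and 13966 TPM in protrusions. Both protrusion libraries were above both cell body libraries, and the mRNA was between the second and the fifth most abundant of all genes in every library. The log2 fold change was 0.26 (95% interval -0.04 to 0.56, adjusted p = 0.205 from limma, n = 2 per fraction). Under quantile normalization it was at 0.81 and passed (adjusted p = 0.0498 from limma), where 4.2% of all genes were called higher. That normalization sets values by rank, so at this rank they rest on the levels of the few most abundant genes. With scaling to *Ppia* and *Ywhaz* the log2 fold change was 0.12. Annotated pseudogenes matched a transcript at 95% identity or more in 9 cases for *Eef1a1*, 4 for *Eef1g*, 3 for *Tpt1*, 2 for *Naca* and 1 each for *Eef1b2*, *Eef2*, *Pabpc1* and *Btf3*, so part of the reads of these genes may have been assigned elsewhere or left out.

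The exchange factor eEF1B reloads eEF1A with GTP, and its mRNAs had folds of different size, a difference that was not tested. *Eef1g* (chromosome 19, 8967041 to 8978479) encodes the gamma subunit, which anchors the complex. It had 1132 and 1278 TPM in cell bodies and 1683 and 1804 TPM in protrusions, well apart, and the log2 fold change was 0.53 (SE 0.12, limma adjusted p = 0.0516, 0.0126 with the block). *Eef1b2* (chromosome 1, 63176825 to 63180486) encodes a nucleotide exchange subunit. It had 604 and 629 TPM in cell bodies and 785 and 838 TPM in protrusions, again without overlap, and the log2 fold change was 0.40 (SE 0.10, limma adjusted p = 0.0713, 0.0370 with the block).

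*Eef1d* (chromosome 15, 75894205 to 75909556) encodes the other exchange subunit. Its levels were 167 and 202 TPM in cell bodies and 181 and 194 TPM in protrusions. The protrusion values fell between the cell body values, and the log2 fold change was 0.03 (95% interval -0.30 to 0.36, adjusted p = 0.900 from limma), with a negative sign under the scaling to *Ppia* and *Ywhaz* and under the GC correction. Within the libraries, the *Eef1d* level was 14.7% and 15.8% of that of *Eef1g* in cell bodies and 10.8% in both protrusion libraries. *Eef1g* was at 10.4% and 10.6% of the *Eef1a1* level in cell bodies and at 12.5% and 12.9% in protrusions, so that both ratios separated the fractions. *Eef1b2* stood at 5.55% and 5.22% of *Eef1a1* in cell bodies and at 5.82% and 6.00% in protrusions. These ratios were not tested.

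*Eef2* (chromosome 10, 81176631 to 81182498) encodes the GTPase that translocates the ribosome by a codon. It had 1186 and 1438 TPM in cell bodies and 1597 and 1711 TPM in protrusions. All protrusion values were higher, the log2 fold change was 0.34 (SE 0.13, limma adjusted p = 0.149), and the mRNA kept to 10.9% to 12.3% of the *Eef1a1* level with overlapping fractions. The cell body replicates of *Eef2* were further apart than its protrusion replicates.

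*Pabpc1* (chromosome 15, 36595661 to 36609668), for the cytoplasmic poly(A)-binding protein that coats mRNA tails and promotes initiation, had the highest fold of the 10. Its levels were 198 and 303 TPM in cell bodies and 465 and 432 TPM in protrusions. Both protrusion libraries were higher, but the cell body replicates differed 1.53-fold from each other. The log2 fold change was 0.87 (SE 0.21, limma adjusted p = 0.0605, 0.00404 with the block), a fold of 1.83. It was 2.34-fold in replicate 1 and 1.42-fold in replicate 2, and the log2 value was 0.56 without cell body replicate 1 and 1.17 without cell body replicate 2. Of the 79 ribosomal protein mRNAs only *Rps2* had a higher fold.

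*Tpt1* (chromosome 14, 75845093 to 75848525) encodes the translationally controlled tumor protein, a growth-associated protein whose mRNA is a classic TOP mRNA. It was the second most abundant of the 10, with 5781 and 5469 TPM in cell bodies and 6953 and 8362 TPM in protrusions. The groups were separate, and the protrusion replicates differed more than the cell body replicates. The log2 fold change was 0.44 (SE 0.14, limma adjusted p = 0.0954), 1.20-fold in replicate 1 and 1.53-fold in replicate 2.

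*Gnb2l1*, the earlier symbol of *Rack1* (chromosome 11, 48800332 to 48806434), encodes a scaffold protein of the small ribosomal subunit. It had 2383 and 2382 TPM in cell bodies and 2684 and 2925 TPM in protrusions. The cell body replicates were nearly equal and both protrusion libraries were above them, with a log2 fold change of 0.23 (95% interval -0.04 to 0.50, adjusted p = 0.205 from limma). No near-identical pseudogene was found for it or for *Eef1d*.

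*Naca* and *Btf3* encode the alpha and beta subunits of the nascent polypeptide-associated complex, which meets new chains at the ribosomal tunnel exit. *Btf3* (chromosome 13, 98309896 to 98317006) had 744 and 751 TPM in cell bodies and 840 and 829 TPM in protrusions, a narrow separation with a log2 fold change of 0.16 (95% interval -0.09 to 0.40, adjusted p = 0.319 from limma). *Naca* (chromosome 10, 128035575 to 128048637) had 210 and 202 TPM in cell bodies and 206 and 212 TPM in protrusions. Its groups overlapped, and the log2 fold change was 0.02 (95% interval -0.23 to 0.28, adjusted p = 0.900 from limma), negative under the scaling to *Ppia* and *Ywhaz*. The level of *Naca* cannot be set against that of *Btf3* as molecules. Reads per TPM give *Naca* a length 6.33 times that of *Btf3* in the authors' scaling, and *Naca* has an annotated transcript of 6745 bases that includes a large muscle-specific exon.

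**Figure D2:**
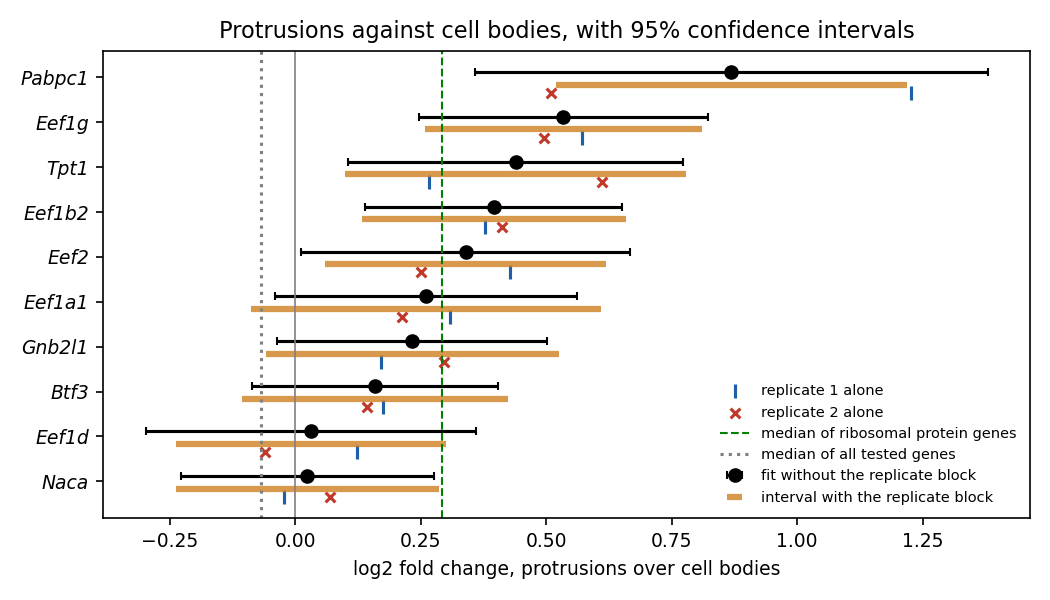
For each mRNA, the log2 ratio of protrusion to cell body level (black points) with 95% confidence intervals without (black) and with (orange) the replicate block, and the fold of each replicate alone (blue bars and red crosses). The intervals of *Pabpc1*, *Eef1g*, *Tpt1*, *Eef1b2* and *Eef2* lie above 0, and the medians of the ribosomal protein genes (green dashes, 0.29) and of all tested genes (gray dots, -0.07) are drawn for comparison.

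Leaving out protrusion replicate 1, the library with the liver RNAs, kept each of the 10 folds above 0. The log2 fold change was then 0.82 for *Pabpc1*, 0.58 for *Eef1g*, 0.57 for *Tpt1* and 0.44 for *Eef1b2*, and the median of the 10 was 0.34. That median was 0.22 without cell body replicate 1, 0.37 without cell body replicate 2 and 0.26 without protrusion replicate 2. In each of these fits 9 of the 10 folds were above 0. Summed over the 10 mRNAs, their TPM made up 2.33% and 2.47% of the cell body libraries and 2.89% and 3.13% of the protrusion libraries. *Eef1a1* alone supplied 44.7% to 48.8% of that sum.

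The ribosomal protein mRNAs, the main body of the TOP class, are set beside them as background. All 79 had a log2 fold change above 0, with a median of 0.29, and 74 of them had both protrusion libraries above both cell body libraries (26.4% of all genes). Under quantile normalization 63 of the 79 were above 0 with a median of 0.07, while the median of the 10 mRNAs was 0.34. The test called 7 higher (2.99% of all genes) and 0 lower (4.25%), and with the block 15 higher (8.08%), while leaving out any 1 library left 0. *Rps2* was at 3506 and 3477 TPM in cell bodies and at 6782 and 6282 TPM in protrusions, a log2 fold change of 0.90 (adjusted p = 0.0341 from limma). *Rplp2*, at 0.74, had a limma adjusted p of 0.0765 (blocked, 0.0146), and also passed at a mean TPM of at least 10 (adjusted p = 0.0490 from limma). The lowest were *Rpl15* at 0.07, *Rps28* at 0.13 and *Rps26* at 0.14, which turned negative under the scaling to *Ppia* and *Ywhaz* and under quantile normalization.

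By replicate, the 10 mRNAs had median log2 fold changes of 0.29 and 0.27, and the ribosomal protein mRNAs 0.21 and 0.42. The summed level of the 10 was 12.9% and 14.8% of that of the ribosomal protein mRNAs in cell bodies and 13.7% in both protrusion libraries, so the ratio did not separate the fractions. The difference between the groups of genes was not tested.

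**Figure D3:**
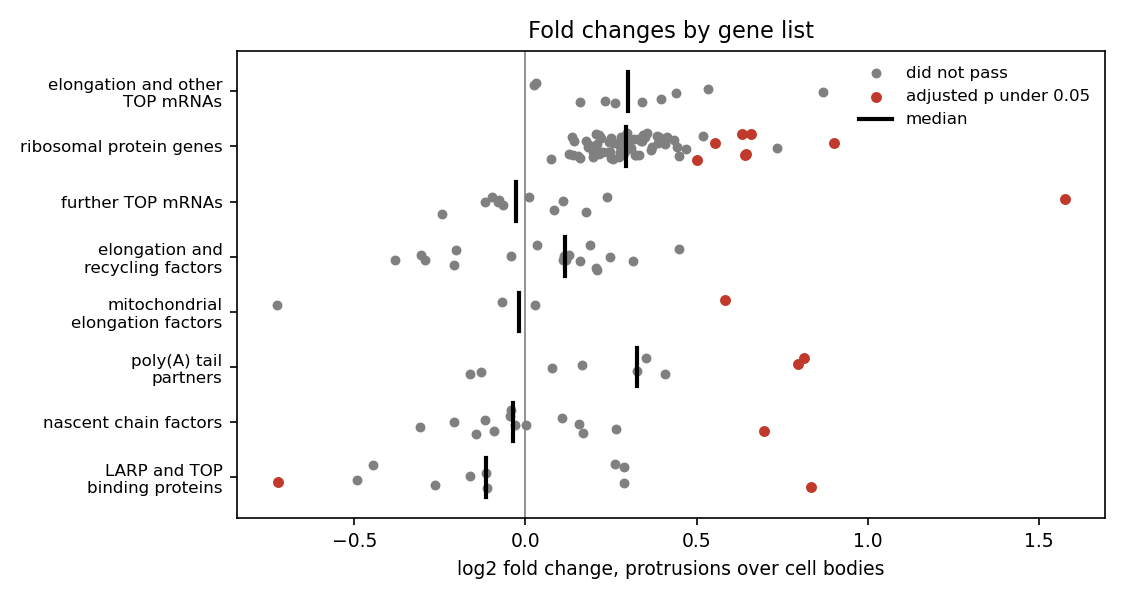
Log2 ratios of protrusion to cell body level in the 10 mRNAs, the ribosomal protein genes and 6 related gene lists, 1 point per tested gene, with calls at an adjusted p under 0.05 in red and medians as black bars. The 10 mRNAs (median 0.30) and the ribosomal protein genes (0.29) lie to the right of 0, and the further TOP mRNAs have a median of -0.03.

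A list of 12 further mRNAs known to carry a TOP motif, among them initiation factor subunits, *Npm1* and *Vim*, had a median log2 fold change of -0.03. Only *Eif3f*, for an initiation factor 3 subunit that the study took up among its localized mRNAs, was called, rising from 76.4 and 57.0 TPM to 194 and 202 TPM (log2 fold change 1.58, adjusted p = 0.0335 from limma). In this list and the 5 that follow, 6 genes were called higher and 1 lower, beside 2.99% and 4.25% of all genes, and 0 or 1 were called higher and 0 lower with a library left out. In the order of the text, 12, 18, 4, 9, 14 and 11 genes of these lists were tested. The shares of all genes are the background for the counts of each list. *Eif3h* was at 0.24 and *Eif2a* at -0.24, and neither passed.

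Of 18 tested elongation and ribosome recycling factors outside the TOP group, 0 were called, and 1 had an unadjusted p under 0.05 in each direction, against 12.6% of all genes higher and 18.7% lower. *Eif5a*, for the factor that eases peptide bond formation at difficult sequences, had 571 and 602 TPM in cell bodies and 806 and 793 TPM in protrusions. Its log2 fold change of 0.45 had a limma adjusted p of 0.0545 (blocked, 0.0226), and it also passed at a mean TPM of at least 10, with quantile normalization and with length correction (adjusted p = 0.0376, 0.0435 and 0.0390 from limma). *Abce1*, which splits ribosomes for recycling, was at -0.31, and *Dph7*, of the pathway that makes the diphthamide of eEF2, at -0.38. The list had a median of 0.12.

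Among 4 mitochondrial elongation factors, which serve the separate ribosomes of that organelle, *Tsfm* rose by 0.58 (log2, adjusted p = 0.0478 from limma; 0.44 and 0.0770 with scaling to *Ppia* and *Ywhaz*), *Gfm1* was at -0.07 with its sign changing under median centring, GC and length correction, and *Gfm2*, at -0.73, passed as lower with the block (adjusted p = 0.0826 from limma, 0.0340 with the block).

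The binding partners and relatives of *Pabpc1* had a median of 0.33, with 7 of 9 above 0 and 2 called higher. *Pabpc4*, a second cytoplasmic poly(A)-binding protein, had 69.1 and 64.4 TPM in cell bodies and 127 and 109 TPM in protrusions, with no overlap. Its log2 fold change was 0.81 (adjusted p = 0.0355 from limma). *Tob2*, which links poly(A)-binding protein to deadenylases, rose by 0.80 (adjusted p = 0.0422 from limma; 0.05001, a lost call, with scaling to *Ppia* and *Ywhaz*), and *Paip1*, which binds PABP to stimulate initiation, was at 0.41 and did not pass.

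The nascent chain factors had 1 call in 14 tested genes and a median of -0.04. *Naa50*, an N-terminal acetyltransferase subunit, rose by 0.70 (adjusted p = 0.0355 from limma; 1.08 with GC correction), *Dnajc2*, a ribosome-associated chaperone, was at 0.26, and *Metap1*, an aminopeptidase that removes the starting methionine, was at -0.21, with a positive sign under the GC correction. Of the 11 tested mRNAs for LARP proteins and other TOP mRNA binders, 1 was called higher and 1 lower. With the block 1 was called higher and 3 lower (8.08% and 13.3% of all genes). The list had a median of -0.11, with 4 of 11 above 0. *Larp1*, whose protein represses TOP mRNAs, rose from 35.9 and 39.6 TPM to 68.2 and 66.8 TPM, a log2 fold change of 0.83 (adjusted p = 0.0349 from limma). *Larp4*, whose protein binds poly(A) and PABP, fell by 0.72 (adjusted p = 0.0445 from limma), and with GC correction it was at -0.38 and lost its call (adjusted p = 0.0891 from limma, 0.0536 with the block). *Ssb*, for the La protein, was at -0.44, with a limma adjusted p of 0.0567 (blocked, 0.0221). It also passed as lower at a mean TPM of at least 10 and with scaling to *Ppia* and *Ywhaz* (adjusted p = 0.0394 and 0.0371 from limma), and with GC correction it was at -0.08 (adjusted p = 0.700 from limma).

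Small nucleolar RNAs (snoRNAs) are released from spliced introns and guide modification of other RNAs in the nucleus. Of those measured, 5 lie in introns of 4 of the 10 genes, and all 5 fell in protrusions (limma, adjusted p under 0.05; 4.25% of all genes were called lower), while the mRNAs of their hosts were at 0.23 to 0.44 and did not pass. The study reported nucleolar RNAs to be depleted from protrusions. Other snoRNAs were not counted here, so the fall is not shown to be particular to these 5. None of the 5 overlapped an exon of a coding transcript of its host. Reads of unspliced host RNA over these stretches cannot be told apart from those of the snoRNAs. *Snora41*, in *Eef1b2* (chromosome 1, 63179022 to 63179135), was at 44.8 and 50.5 TPM in cell bodies and at 12.5 and 15.1 TPM in protrusions. *Snord37*, in *Eef2*, was at 17.1 and 18.9 TPM in cell bodies and at 5.59 and 4.43 TPM in protrusions. On the log2 scale both fell by 1.76 (adjusted p = 0.0273 and 0.0335 from limma), with reads as low as 19 and 4 in a library.

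*Snora31*, in *Tpt1*, was at 90.9 and 125 TPM in cell bodies and at 43.7 and 55.1 TPM in protrusions, a log2 fold change of -1.11 (adjusted p = 0.0400 from limma). In *Gnb2l1*, *Snord96a* fell by 0.82 and *Snord95* by 1.41 (adjusted p = 0.0367 and 0.0342 from limma). In each of the 5 pairs the snoRNA level over the host level was lower in both protrusion libraries than in both cell body libraries, and that difference was not tested. With length correction *Snora31* was at -0.88 and *Snord96a* at -0.45, and both lost their calls (adjusted p = 0.0708 and 0.0591 from limma). Each of the 5 lost its call in at least 3 of the 4 fits that left out a library.

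**Figure D4:**
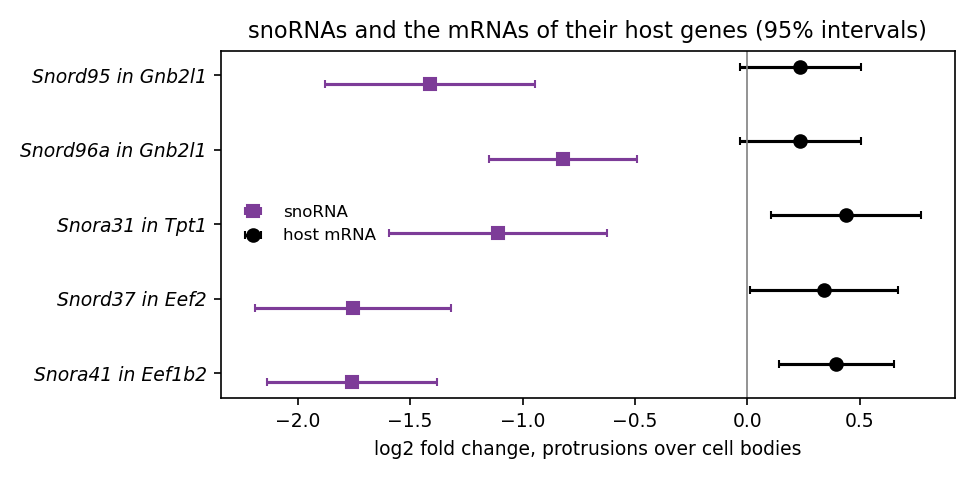
Log2 ratio of protrusion to cell body level, with 95% confidence intervals, for the 5 intronic snoRNAs (squares) and the mRNAs of their host genes (circles). The snoRNAs lie between -1.76 and -0.82, and the hosts between 0.23 and 0.44.

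The mean pattern of the 10 mRNAs, in log2 values centred per gene, was -0.24 and -0.09 in cell bodies and 0.13 and 0.20 in protrusions. Of 1517 other genes at a mean of at least 100 TPM, the nearest over the 4 libraries by Euclidean distance were *Ndufc1* (distance 0.0249), *Tpm3* (0.0303), *Gabarapl2* (0.0421), *Atp5g2* (0.0443) and *Tcf25* (0.04997). Their log2 fold changes were 0.30 to 0.34, a likeness that follows from choosing them by this pattern, and none passed the test.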

How the data were processed

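Cell bodies and protrusions of YUMM1.7 cells were compared by RNA-seq, with 2 libraries of each fraction. The authors deposited TPM per gene and library, made from stranded, rRNA-depleted total RNA reads aligned to mm10. The methods name TopHat 2.0.12, while the submitters' processing notes name STAR, featureCounts and edgeR. The counting of reads from near-identical copies is not given in the sources used. Columns with the authors' own fold changes, test statistics and p-values were not used.

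For the 11400 genes whose mean TPM was 1 or more, limma 3.58.1 in R 4.3.3 was run on log2(TPM + 0.5), with its prior variance allowed to follow the mean. Tests were two-sided, with Benjamini-Hochberg adjustment over all of these genes. The added 0.5 makes folds of weakly expressed genes too small. Intervals are 95% confidence intervals. Reads were recovered from ratios of TPM (within 0.01 of whole numbers) for 15122 genes, as smallest possible numbers. They served to show depth only. The study's supplement presents each replicate as a pair, and both fractions came off the same membranes. Deviations of same-numbered libraries from their fraction means correlated at 0.447 over genes, so the replicate number was taken to pair the libraries. The fit as reported left this pairing out, and SEs, intervals and p-values come from it unless the block is named. The blocked value is given where it changed a call.

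Named were the 10 mRNAs, the control mRNAs, the ribosomal protein genes with the 3 highest and 3 lowest folds, the 3 genes of each other list with the smallest p, intronic snoRNAs of the 10 genes and the 5 nearest genes. The values of 1 of these ribosomal protein genes and 1 start sequence are not reported here. *Npm1* and *Vim* are named only as list members. Members and lists were chosen with earlier results of these data known. Symbols were matched to GENCODE (GRCm38) directly for 15710 genes and through RefSeq synonyms for 652. Pseudogenes were found with blastn 2.17.0 over at least 100 bases. Alternatives were the block, other pseudocounts and TPM minimums, other scalings, GC and length corrections, and leaving out each library.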

Additional observations from a re-analysis of the deposited data

How the results depend on the processing

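Under 16 alternatives the log2 fold changes of 8 of the 10 mRNAs kept 1 direction, and none of the 10 was called lower in any. With only 2 libraries per fraction, leaving out any of them ended most calls. The number of the 10 called higher was 0 in the fit as reported (2.99% of all genes) and 3 with the replicate block (8.08%). At a mean TPM of at least 10 it was 2 (6.59%), with median centring 1 (4.32%) and with quantile normalization 2 (4.2%). GC correction gave 1 (3.3%), and 2 with the replicate block (11.3%). The number was 3 with length correction (5.72%) and 5 with the replicate block and length correction (15.6%). It was 0 with the other alternatives. Beside the genes for which a blocked value is given, the replicate block changed the call of no named gene.

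Calls of higher ribosomal protein genes, 7 of 79 as reported (2.99% of all genes), were 15 with the replicate block (8.08%) and 0 with no minimum on TPM. They were 10 at a mean TPM of at least 10 (6.59%). Median centring, quantile normalization and scaling to *Ppia* and *Ywhaz* gave 2 each (4.32%, 4.2% and 1.82%). GC correction gave 3 (3.3%), and 5 with the replicate block (11.3%). Length correction gave 7 (5.72%), and 21 with the replicate block (15.6%). Over all genes, 341 higher and 485 lower calls became 921 and 1513 with the replicate block, 0 and 0 with no minimum on TPM (3630 genes at an unadjusted p under 0.05), 519 and 857 at a mean TPM of at least 10, 207 and 1100 with scaling to *Ppia* and *Ywhaz*, 1275 and 1499 with the replicate block and GC correction, and 1762 and 1789 with the replicate block and length correction. Length correction alone gave 647 higher. Leaving out a library gave 0 to 14 higher and 0 to 144 lower, and only the fit without protrusion replicate 1 made calls. The fits with 0 calls had 3157, 2362 and 1899 genes at an unadjusted p under 0.05 (limma).

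In the other lists, 6 higher and 1 lower calls became 0 and 0 with no minimum on TPM and 12 and 4 with the replicate block and length correction. Higher calls were 12 with the replicate block and GC correction. Lower calls were 4 with the replicate block, 2 at a mean TPM of at least 10, 2 with scaling to *Ppia* and *Ywhaz* and 0 with GC correction. Leaving out a library gave 0 to 1 higher and 0 lower. The 5 lower snoRNAs became 0 with no minimum on TPM, 3 with length correction and 0 to 3 with a library left out.

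Scaling to *Ppia* and *Ywhaz* moved the median of all genes from -0.07 to -0.20, that of the 10 mRNAs to 0.16 and that of the ribosomal protein genes to 0.16, and the share of higher calls from 41.3% to 15.8%. Under quantile normalization the ribosomal protein median was 0.07. Signs changed as follows. *Eef1d* was at -0.11 with this scaling, at -0.0795 with GC correction with or without the replicate block, and from -0.11 to 0.17 with a library left out. *Naca* was at -0.11 with this scaling and from -0.00394 to 0.0528 with a library left out. *Rpl15* was at -0.045 with quantile normalization and -0.0638 with this scaling, *Rps28* at -0.0283 and -0.0109 and from -0.00412 to 0.26 with a library left out (-0.00312 without protrusion replicate 2), and *Rps26* at -0.0738 and -0.00034. *Ywhaz* itself was at -0.024 with this scaling and from -0.041 to 0.27 with a library left out, and *Ppia* at -0.12 with quantile normalization. With GC correction, with or without the replicate block, *Abce1* was at 0.0035, *Gfm1* at 0.10, *Metap1* at 0.14, *Arpc3* at 0.0038 and *Atp5g2* at -0.0154. With median centring *Gfm1* was at 0.0122 and *Arpc3* at 0.0039, and with length correction, with or without the replicate block, *Gfm1* was at 0.0114. The causes were not tested.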
